A study of Homo sapiens with 32 samples.

Results

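Accessible windows that lie in no gene and far from every gene start were followed in HEK293T cells, a human embryonic kidney line, through the acute loss of the transcription factor ZNF143. Accessibility was measured by ATAC-seq, in which Tn5 transposase cuts and tags open DNA. The authors' count table held 212358 windows of 401 bp in hg38. A window was kept when its centre lay in no gene body of GENCODE release 44 and more than 50000 bp from every annotated transcript start, a rule that uses position alone. It was met by 12879 windows, or 6.06% of the table, called far intergenic windows here.

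All libraries came from 1 clone, HEK_CloneZD29, whose ZNF143 has an inducible degron tag, so that the controls carry the tag too. The control group received DMSO, and the treated group 50 nM dTAGV-1 for 30 min. Counts were used for replicates 9 to 16 of each group, 8 control and 8 dTAGV-1 libraries, while replicates 1 to 8 had no counts used here. The labels do not say whether replicates were separate cultures, so p-values measure only the spread between these libraries. The level of ZNF143 protein was not analysed here, and 1 clone with 1 time point limits what the model can show.

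ZNF143 is a zinc finger protein best known as an activator at promoters, where it binds a long sequence whose centre reads CCCA, any base, then AATGC or CATGC. A longer form of its site carries ACTACA ahead of CCCA. Open chromatin far from genes is commonly formed by enhancers, where factors of the AP-1, TEAD, GATA and forkhead families bind, and by sites of CTCF, which anchors chromatin loops. The drug dTAGV-1 links the tagged protein to a ubiquitin ligase, which marks it for degradation.

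Of the 10583 far intergenic windows with enough counts to test, 9 fell in accessibility after dTAGV-1 (0.0850%) and 0 rose. Over all tested windows 0.213% fell and 0.00108% rose. The sequences of the 9 far intergenic windows that fell were read after the calls were known. Of these, 8 shared 1 element, ACTACANNNCCCA, where N is any base. The element lay 8 to 69 bp from the window centre. None of the 9 held the shorter ZNF143 core within 100 bp of the centre. The 8 stretches are shown first because they come from 8 of the 9 called windows. Each has the element in capitals, 20 bases before it and 40 after it. Each is read 5′ to 3′ on the strand that spells the element (hg38).
chr15:70420546-70420618, plus strand: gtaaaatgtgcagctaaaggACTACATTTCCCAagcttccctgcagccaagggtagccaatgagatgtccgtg
chr10:125285089-125285161, minus strand: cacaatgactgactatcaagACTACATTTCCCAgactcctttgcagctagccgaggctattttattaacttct
chr13:85650808-85650880, plus strand: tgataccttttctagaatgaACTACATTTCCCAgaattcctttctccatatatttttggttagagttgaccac
chr18:29148020-29148092, plus strand: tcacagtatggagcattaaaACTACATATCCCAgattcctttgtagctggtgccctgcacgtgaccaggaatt
chr18:25503845-25503917, minus strand: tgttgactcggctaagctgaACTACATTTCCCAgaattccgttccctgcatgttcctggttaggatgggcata
chr15:69958660-69958732, plus strand: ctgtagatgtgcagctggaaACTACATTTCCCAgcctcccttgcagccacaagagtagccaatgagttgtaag
chr6:137324006-137324078, plus strand: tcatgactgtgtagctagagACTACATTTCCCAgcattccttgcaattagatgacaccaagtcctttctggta
chr12:114982918-114982990, minus strand: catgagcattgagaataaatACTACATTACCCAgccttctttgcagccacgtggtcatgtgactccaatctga

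All 8 began with ACTACAT, and in 7 of the 8 a G followed the CCCA of the element. Neither feature was particular to called windows. Both occurred in uncalled windows with the element, among them chrX:39574199-39574599, chr5:153831986-153832386, chr6:15754303-15754703, chr5:71887720-71888120 and chr13:59364761-59365161. Over the 60 flanking bases the 8 stretches shared 35.3% of positions on average between pairs. The 9 tested far intergenic windows that held the element and were not called shared 29.5%. No repeat annotation was used here. Of the windows that held the element and were not called, the first 2 shown here had negative log2 fold changes, -0.88 at chr9:1722430-1722830 and -0.28 at chr5:71887720-71888120. The third had a positive one, 0.42 at chr7:26043316-26043716, and the fourth a negative one, -0.33 at chr6:104296062-104296462.
chr9:1722618-1722690, minus strand: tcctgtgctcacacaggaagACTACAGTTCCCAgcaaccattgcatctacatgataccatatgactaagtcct
chr5:71887928-71888000, minus strand: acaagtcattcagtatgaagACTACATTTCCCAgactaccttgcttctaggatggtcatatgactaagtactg
chr7:26043474-26043546, minus strand: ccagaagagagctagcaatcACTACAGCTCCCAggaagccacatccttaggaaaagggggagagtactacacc
chr6:104296245-104296317, plus strand: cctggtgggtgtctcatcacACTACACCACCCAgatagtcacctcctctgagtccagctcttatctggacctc

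The called window with the smallest p-value, on chromosome 15, is shown at greater length for context, as the 300 bases around its centre on the plus strand with the element in capitals.
chr15:70420491-70420790, plus strand: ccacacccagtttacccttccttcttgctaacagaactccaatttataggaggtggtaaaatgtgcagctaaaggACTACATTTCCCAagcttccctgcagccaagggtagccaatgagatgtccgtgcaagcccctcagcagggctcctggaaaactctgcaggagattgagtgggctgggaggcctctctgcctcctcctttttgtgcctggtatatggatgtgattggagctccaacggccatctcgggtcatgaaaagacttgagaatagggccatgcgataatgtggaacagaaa

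The libraries held 2275856 to 13671039 counts in windows. Replicates 11 and 12 stood apart. The decile of the table's windows with the highest mean counts took 31.8% of the counts of control replicate 12 and 38.9% of dTAGV-1 replicate 12. It took 41.8% of dTAGV-1 replicate 11 and 45.8% of control replicate 11, against 48.1% to 49.6% in the others. The labels name no batch. As a check of the labelled line, a promoter window of PAX2, a gene of renal lineage, was tested and reached 3.48 log2 CPM. PTPRC, CD3E and SPI1 of blood and ALB, APOA1 and SERPINA1 of liver had no promoter window, and MYOD1, COL1A1 and COL3A1 of muscle and fibroblasts had tested windows of 1.28 to 3.89 log2 CPM. These are accessibility values, and a part of other cells in them was not tested.

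The far intergenic windows lay a median of 88654 bp from the nearest start, from just past the limit at 50003 bp to 3435248 bp on chromosome 1. The nearest start was that of a long noncoding RNA for 37.2% of them, of a pseudogene for 33.8%, of a protein-coding gene for 16.5%, and of a short or other RNA for 12.5%. Most, 58.2%, lay within 100 kb of a start, and 62 windows lay beyond 500 kb. At the limit itself, the 3295 windows of no gene body at 40 to 50 kb had a median of 1.10 log2 CPM. Of these, 2741 were tested and 5 called lower. The 2379 at 50 to 60 kb had a median of 1.13, with 1983 tested and 1 called lower. Over all tested windows 0.213% were called lower, and counts this small do not tell the sides apart. These values describe the edge of the rule and were not tested.

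Sequence that meets the rule covered 394 Mb, or 13.4% of the 2938 Mb of called bases, and held 32.7 windows per Mb. The table as a whole held 72.3 windows per Mb. Over 3852 stretches of such sequence at least as long as a window, 2137 (55.5%) held a window, and 242 of them held 50% of all far intergenic windows. A far intergenic window overlapped another window of the table in 26.8% of cases (31.7% over the table), so that some neighbours share counts. The median distance to the next window was 1948 bp, against 896 bp over the table, and 554 windows (4.30%) had none within 50 kb, against 1.18% of all windows. Far intergenic windows were thus sparser and more often alone than windows of the table as a whole. Nearer intergenic and deep intronic windows, defined below, were more like them in spacing. Their median distances to the next window were 1844 and 1715 bp, and 27.5% of each overlapped another window. No other window lay within 50 kb for 1.39% of nearer intergenic and 3.06% of deep intronic windows. These differences were not tested.

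Chromosome 13 held 2743 of the 12879 far intergenic windows, 21.3%, on 5.24% of the sequence that meets the rule. That is 133 windows per Mb, 4.89 times the 27.1 per Mb on the other chromosomes. The excess lay between 60 and 100 Mb, with 275, 210, 237 and 179 windows per Mb in successive 10 Mb stretches, and 7.64 per Mb from 100 to 110 Mb. The fullest stretch, chr13:81740069-82773130, held 244 windows in 1033 kb. All windows of chromosome 13, wherever placed, stood at 127 per Mb. Chromosomes 6 and 3 followed with 59.6 and 49.3 far intergenic windows per Mb, and chromosome 19 had 2.15.

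The windows on chromosome 13 had lower support in the authors' peak calling. Their median -log10 q was 9.57, against 16.7 for far intergenic windows elsewhere, and 71.7% held a summit of the authors' separate summit list, against 81.0%. Their accessibility was not lower, with a median of 1.18 log2 CPM against 1.04, and the promoters of chromosome 13, at a median of 2.94 log2 CPM, lay within the 2.78 to 3.36 of the chromosomes. Why chromosome 13 holds more windows was not tested. Of the far intergenic windows on chromosome 13, 1 of 2540 tested was called lower (0.0394%), against 0.213% of all tested windows. Control replicate 12 had 1.47% of its counts in them, against 0.571% to 0.793% in the other controls.

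**Figure D1:**
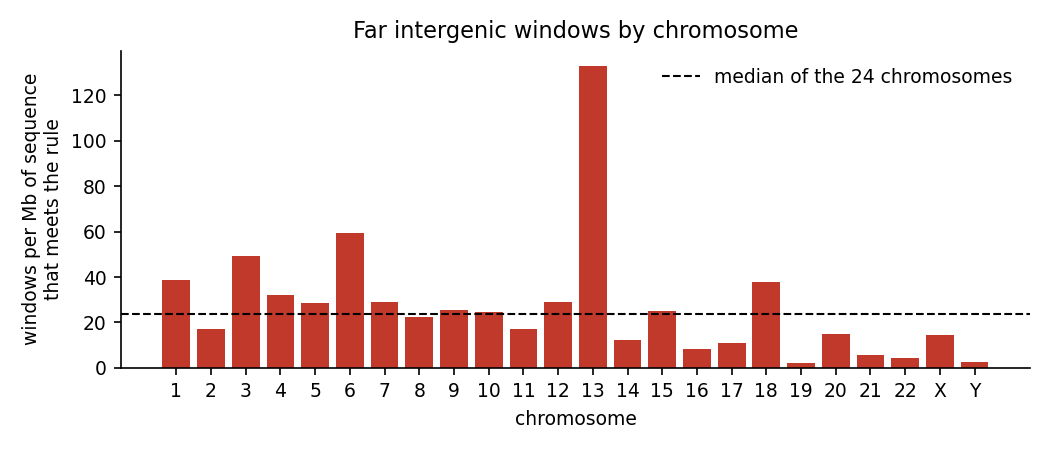
Far intergenic windows per Mb of sequence that meets the rule (vertical axis) on each chromosome (horizontal axis), with the median of the 24 chromosomes, 23.5 per Mb, as a dashed line. Chromosome 13 stands at 133 per Mb, and the next, chromosome 6, at 59.6.

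Far intergenic windows were weakly accessible. Their median over the tested ones was 1.08 log2 CPM, against 1.46 over all tested windows, 1.24 for nearer intergenic windows (more than 2000 and up to 50000 bp from a start, in no gene body), 1.08 for deep intronic windows (in an intron, more than 50000 bp from a start) and 3.05 for promoter windows (within 500 bp of a start). Of the tested far intergenic windows, 69.1% fell in the lowest 5 deciles of all tested windows by accessibility, and 181 (1.71%) in the top decile. By distance, the median was 1.10 log2 CPM at 50 to 100 kb, 1.06 at 100 to 200 kb, 1.05 at 200 to 500 kb, and 0.78 over the 50 tested windows beyond 500 kb.

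They were poorer in G and C, with a median of 44.4% against 48.1% over the table and 62.6% at promoters. Their observed over expected CpG was 0.180, against 0.249 and 0.723. These values put them near deep intronic windows (43.6% and 0.186) rather than promoters. A summit of the separate list lay in 79.1% of far intergenic windows and in 77.8% of all.

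**Figure D2:**
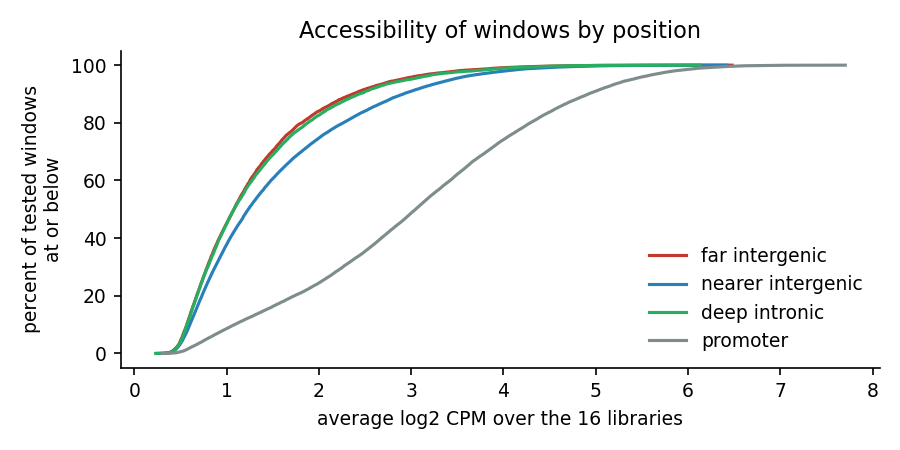
Percent of tested windows (vertical axis) with an average log2 CPM at or below the value on the horizontal axis, for 4 positions. The curves of far intergenic and deep intronic windows, both with a median of 1.08, run together, and promoter windows (median 3.05) lie far to the right.

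A few far intergenic windows were open strongly. The highest, chr9:79256759-79257159, lay between ENSG00000260995 and CHCHD2P9 and reached a mean of 6.42 ± 0.46 log2 CPM in control libraries (SD, n = 8) and 6.44 ± 0.29 with dTAGV-1. Next was chr9:79447795-79448195, between CHCHD2P9 and LNCARSR, at 6.37 ± 0.43 and 6.28 ± 0.27, and chr9:79446446-79446846, close by, had 5.43 ± 0.28 and 5.43 ± 0.32. So 3 of the 5 highest windows lay together on chromosome 9. LNCARSR is a long noncoding RNA gene known from drug resistance in kidney cancer.

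The other two were chr13:87124033-87124433, between LINC00430 and UBBP5, at 5.56 ± 0.31 and 5.55 ± 0.29 log2 CPM, and chr3:94179003-94179403, between RBBP4P2 and ARMC10P1, at 5.46 ± 0.44 and 5.40 ± 0.42. The groups overlapped at all 5, and the fitted log2 fold changes lay between -0.11 and 0.015, none called. Of the 5, chr13:87124033-87124433 held the AP-1 site TGACTCA. The tested window farthest from any start, chr13:82255436-82255836, lay 565568 bp from PTMAP5 and 567495 bp from GYG1P2. It held 8 to 18 counts in control and 11 to 33 in dTAGV-1 libraries, and its log2 fold change was 0.40 ± 0.28 (SE, adjusted p = 1.000), so no difference was detectable at this depth.

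The share of each library's counts in far intergenic windows overlapped between the groups. Control libraries had 2.75%, 2.92% and 4.62% as the lowest, median and highest, and dTAGV-1 libraries 2.80%, 2.93% and 3.91%. The highest values were those of replicate 12 in both groups, and the ranges overlapped with and without it. The means were 3.13 ± 0.613% and 3.09 ± 0.381% (SD, n = 8), and 2.88 ± 0.0829% and 2.90 ± 0.0753% (SD, n = 6) without replicates 11 and 12. The median log2 fold change over tested far intergenic windows was 2.9e-04, with an interquartile range of -0.15 to 0.15, and the median over all tested windows was 0.0077.

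Whether single windows responded was tested on the whole table at once, with adjusted p below 0.05 as the threshold. Of the 10583 tested far intergenic windows 9 were lower, 0.0850%, against 0.213% of all 185040 tested windows. None of the far intergenic windows was higher, against 2 windows or 0.00108% of all. At an unadjusted p below 0.05 the far intergenic windows had 149 lower (1.41%) and 159 higher (1.50%), against 1.55% and 1.30% of all tested windows. With DESeq2 the counts were also 9 and 0. Without replicates 11 and 12 of both groups, 13 far intergenic windows were lower, with all 9 among them, and 1 was higher. Of those 13, 9 held the element, against 8 of the 9 with all libraries.

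Nearer intergenic windows had 57 lower (0.156%), deep intronic windows 1 (0.0118%) and promoter windows 214 (0.561%). When the other tested windows were weighted to the accessibility of the far intergenic ones, 0.123% were lower. The share of 0.0850% thus lay below, but near, that of equally weak windows, and the difference was not tested. Lower calls stood at 50 to 100 kb (5 of 6172 tested) and 100 to 200 kb (4 of 3304), with 0 of 1057 at 200 to 500 kb and 0 of 50 beyond. Every dTAGV-1 library lay below every control library in 2 of the 10583 tested far intergenic windows, both among the 9 lower ones, and in 0.0713% of all tested windows.

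The clearest loss was at chr15:70420441-70420841, between the long noncoding RNA genes ENSG00000259503 (start 99065 bp away) and LINC02205 (85287 bp). Control libraries stood at 3.20, 3.63 and 3.99 log2 CPM (lowest, median, highest), and dTAGV-1 libraries at 1.29, 2.47 and 3.12. The groups did not overlap. The log2 fold change was -1.17 ± 0.16 (SE, adjusted p = 6.42e-06, edgeR), which left 44.3% of the control level, from 24 to 154 counts in control and 8 to 81 in dTAGV-1 libraries.

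At chr10:125284877-125285277, between the pseudogenes MRPS21P6 and RPS27P18, control libraries had 1.69, 2.21 and 2.71 log2 CPM and dTAGV-1 libraries 0.093, 1.05 and 1.71. Only dTAGV-1 replicate 12 reached into the control range. The change was -1.42 ± 0.21 (adjusted p = 3.24e-05).

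On chromosome 13, chr13:85650594-85650994 lay 286937 bp from the long noncoding RNA gene LINC00351. Its controls had 1.52, 1.85 and 2.20 log2 CPM and its dTAGV-1 libraries -0.36, 0.41 and 2.06, with 7 of the 8 treated libraries below every control and replicate 11 inside the control range. The log2 fold change was -1.42 ± 0.26 (adjusted p = 0.00162). A window that overlaps it, chr13:85650815-85651215, had -0.68 ± 0.23 and was not called (adjusted p = 0.983).

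Chromosome 18 had a pair of lower windows. At chr18:29147862-29148262, between RNU6-408P and ENSG00000266479, controls had 1.85, 2.28 and 2.67 log2 CPM and dTAGV-1 libraries 0.38, 1.29 and 2.30, of which 7 lay below every control. The change was -1.06 ± 0.20 (adjusted p = 0.00279). The window chr18:25503631-25504031 lay 151641 bp from the start of ZNF521, a zinc finger gene of stem and progenitor cells. Its controls had 2.55, 3.69 and 3.87 log2 CPM and its dTAGV-1 libraries 2.06, 2.85 and 3.37. Control replicate 12 alone gave the lowest control value, and the other 7 controls lay above every dTAGV-1 library. With the smallest change of the 9, -0.80 ± 0.16 (adjusted p = 0.00337), it kept 57.4% of the control level.

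At chr15:69958450-69958850, between the start of the long noncoding RNA gene DRAIC (123435 bp) and that of TLE3 (92855 bp), which encodes a Groucho-type transcriptional corepressor, controls had 0.37, 1.49 and 1.72 log2 CPM. Its dTAGV-1 libraries had -0.60, -0.065 and 0.69, and 6 of the 8 lay below every control. The change was -1.58 ± 0.31 (adjusted p = 0.00429). The largest fitted change among the 9 was at chr6:137323840-137324240, between IFNGR1 (104591 bp), which encodes a chain of the interferon gamma receptor, and OLIG3 (170354 bp), which encodes a neural transcription factor. Controls had 1.03, 1.44 and 2.24 log2 CPM and dTAGV-1 libraries -1.34, -0.18 and 1.44. All but dTAGV-1 replicate 12 lay below every control. The change was -1.64 ± 0.33 (adjusted p = 0.00497), from 12 to 27 counts in control and 2 to 11 in dTAGV-1 libraries.

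The last window with the element, chr12:114982733-114983133, lay 52998 bp from the pseudogene ENSG00000274879. Controls had 1.40, 2.04 and 2.66 log2 CPM and dTAGV-1 libraries -0.26, 1.00 and 1.65, with only dTAGV-1 replicate 11 inside the control range. The change was -1.12 ± 0.23 (adjusted p = 0.00916). Without control replicate 11 or without control replicate 13 the adjusted p was 0.0616 and 0.0541, and it was then not called. The remaining call, chr15:95834372-95834772, near RNU2-3P, held no element, and its -log10 q of 6.63 was the lowest of the 9. It rested on 4 to 19 counts in control and 1 to 8 in dTAGV-1 libraries. Its controls had 0.52, 0.85 and 1.25 log2 CPM and its dTAGV-1 libraries -0.96, -0.35 and 0.23, with no overlap, and the change was -1.40 ± 0.32 (adjusted p = 0.0276). It was past the threshold in 11 of the 22 alternatives that tested it. Leaving out any one of control replicates 9, 10, 13, 14, 15 and 16 or dTAGV-1 replicates 9, 10, 11, 12 and 14 took it over 0.05, to as much as 0.123.

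**Figure D3:**
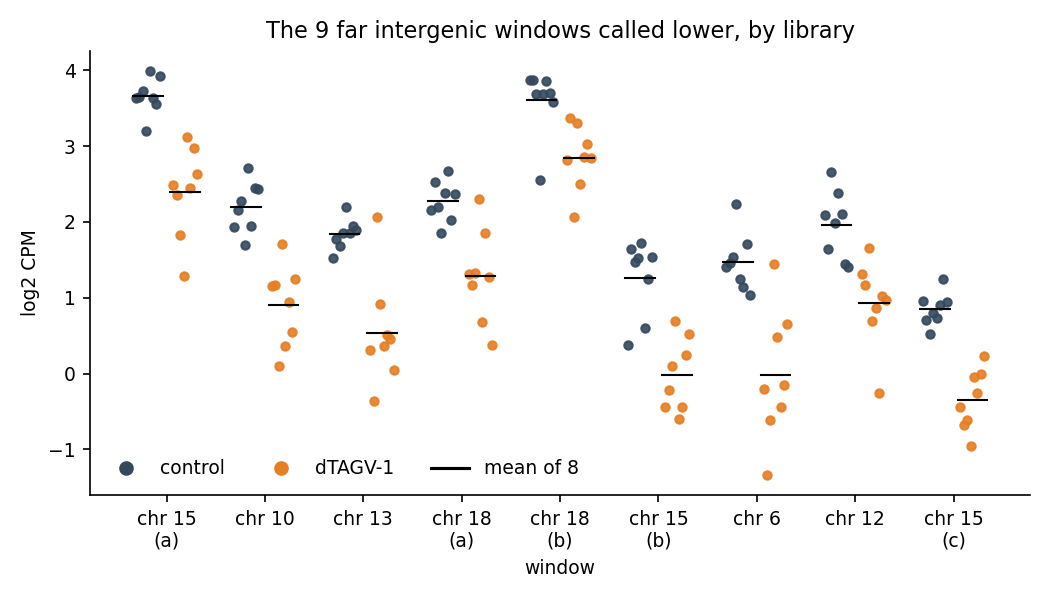
Log2 CPM (vertical axis) in each control and dTAGV-1 library at the 9 far intergenic windows called lower, in order of p-value, with bars at the mean of 8 libraries. On chromosome 15, a is chr15:70420441-70420841, b chr15:69958450-69958850 and c chr15:95834372-95834772, and on chromosome 18, a is chr18:29147862-29148262 and b chr18:25503631-25504031. The groups are apart in 15 (a) and 15 (c), and 1 or more libraries reach into the other group's range at the other 7.

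With all libraries, neighbours of the lower windows were not called. Within 20000 bp of the 9 windows lay 44 other windows, of which 42 were tested. None was called lower, 2 were lower at an unadjusted p below 0.05, and the median log2 fold change of the 42 was -0.074. Over all tested windows 0.213% were called lower and 1.55% were lower at an unadjusted p. With 42 windows, 0 calls is near the background and is not read as a result. Without replicates 11 and 12 of both groups, the overlapping neighbour chr13:85650815-85651215 was called lower, with -0.90 (adjusted p = 0.0461). Beside chr15:70420441-70420841, the nearest tested window on one side, 4509 bp away, had a log2 fold change of -0.081 ± 0.29, and that on the other, 5874 bp away, had -0.19 ± 0.16.

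The shared element was rare far from genes. It was found in 22 of the 12879 far intergenic windows (0.171%), against 994 of all 212358 (0.468%), within 100 bp of the centre on either strand. Of the 22, 17 were tested, 8 were called lower, 13 had an unadjusted p below 0.05 in that direction, and 15 had a negative log2 fold change. The median was -0.88, from -1.64 to 0.42. The 10566 tested windows without it had a median of 5.8e-04, 1 call and 136 with an unadjusted p below 0.05 in the lower direction. Since the element was picked from the called windows, these values are a description, and no test was made of them.

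Among the 9 that were not called, chr9:1722430-1722830 came closest. Its controls had 0.52, 1.51 and 1.93 log2 CPM and its dTAGV-1 libraries 0.30, 0.70 and 1.16, so that the groups overlapped, and its change was -0.88 ± 0.25 (adjusted p = 0.346, edgeR). At chrX:39574199-39574599 the change was -0.86 ± 0.37 and at chr6:15754303-15754703, 91445 bp from DTNBP1, which encodes a protein of lysosome-related organelle biogenesis, it was -0.70 ± 0.34, both with an adjusted p of 1.000. Without replicates 11 and 12 of both groups, chrX:39574199-39574599 was called lower, with -1.46 (adjusted p = 0.0293). The mean accessibility of the 9 uncalled windows was 0.44 to 1.88 log2 CPM, against 0.79 to 3.35 for the 8 called, and these ranges overlapped. A further 5 windows with the element had too few counts to test. Together they held 321 counts in control and 242 in dTAGV-1 libraries, of totals of 68087548 and 70038090, and 4 of the 5 had more in control.

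**Figure D4:**
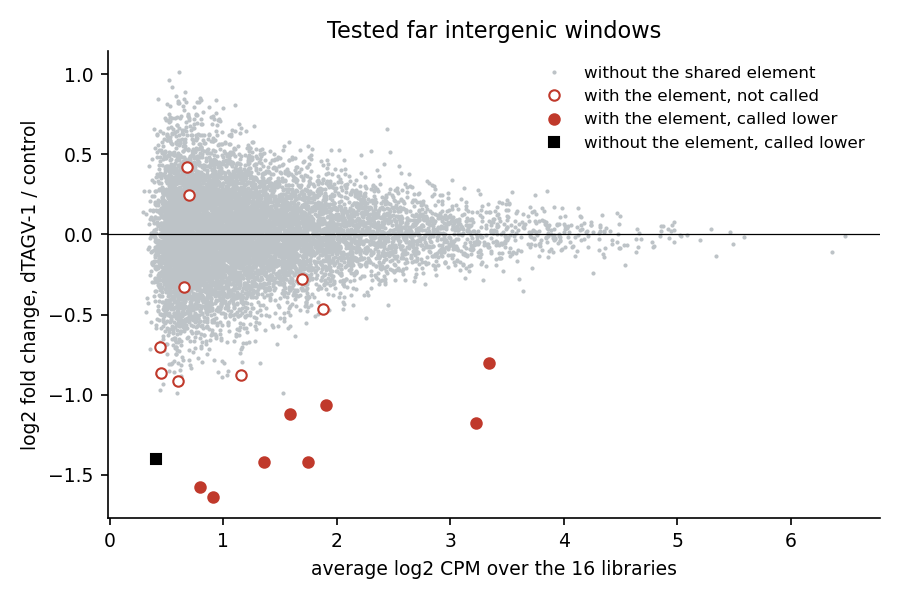
Log2 fold change, dTAGV-1 over control (vertical axis), against average log2 CPM (horizontal axis) for the 10583 tested far intergenic windows. The 8 called windows with the element lie between -1.64 and -0.80. Windows without it reach into this range, among them chr15:95834372-95834772 (-1.40, called lower) and chr13:65444466-65444866 (-0.99, not called in the main fit). Of the 17 windows with the element, 2 lie above 0.

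Elsewhere in the table the element was also found in lower windows. Of 922 other tested windows that held it, 265 were called lower (28.7%), 835 had a negative log2 fold change, and the median was -0.44. Outside far intergenic windows, 121 of the 173535 tested windows without it were called lower. Nearer intergenic windows with the element had 46 of 135 called and a median of -0.80, beside -0.88 for far intergenic ones. Promoter windows had 121 of 540 called and a median of -0.32, and deep intronic windows 1 of 15 and -0.12. Both intergenic groups were less accessible than the promoters with it, with medians of 1.16 (far), 1.60 (nearer) and 4.37 (promoter) log2 CPM. Differences between positions were not tested. The far intergenic values include the called windows from which the element was picked, so they are not on equal terms with the others. Of all lower calls outside far intergenic windows, 265 of 386 (68.7%) held the element. Within them it was 8 of the 9 from which the element was picked.

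**Figure D5:**
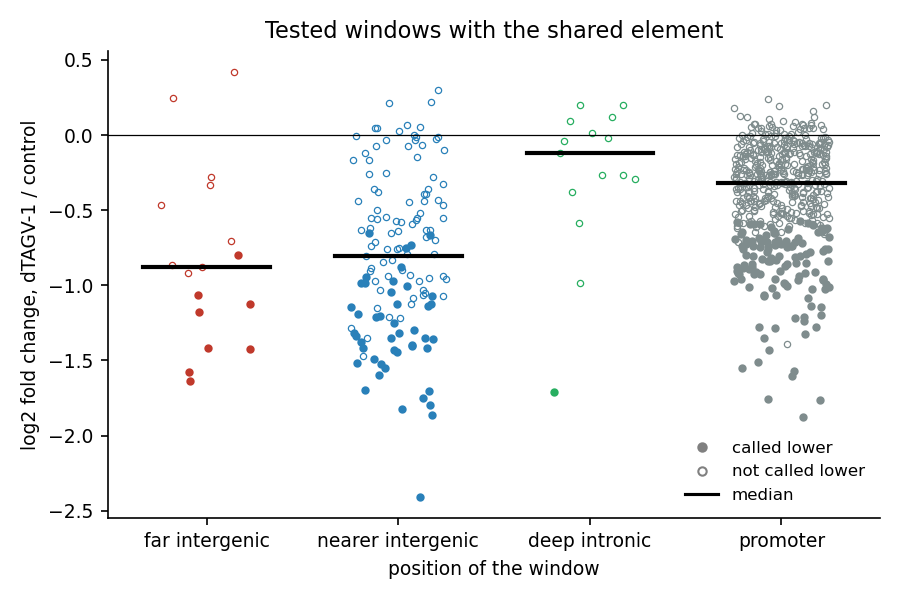
Log2 fold change, dTAGV-1 over control (vertical axis), of each tested window with the shared element, by position (horizontal axis), with filled points for windows called lower and bars at the median. The medians are -0.88 far intergenic, -0.80 nearer intergenic, -0.12 deep intronic and -0.32 at promoters. The far intergenic points include the called windows from which the element was picked.

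Far intergenic windows with the shorter ZNF143 core held no call. The core was present in 70 far intergenic windows (0.544%), near the 0.580% of all windows and below the 0.854% of promoters. Of the 59 tested, 0 were called by edgeR, 3 were lower and 2 higher at an unadjusted p below 0.05, 33 had a negative log2 fold change, and the median was -0.046. Against 0.213% called lower over all tested windows, 0 of 59 is near the background and is not read as a result. None of them held the element as well. Among promoter windows with the core, 30 of 329 were called lower and the median was -0.11, and 77 of the 329 held the element too. The 3 most accessible far intergenic windows with the core are shown with the core in capitals and 20 bases on either side (hg38), since they carry the core without the element.
chrX:69309457-69309506, plus strand: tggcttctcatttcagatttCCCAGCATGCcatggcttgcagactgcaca
chr18:63075202-63075251, plus strand: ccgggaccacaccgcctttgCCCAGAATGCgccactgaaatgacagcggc
chr5:28012751-28012800, minus strand: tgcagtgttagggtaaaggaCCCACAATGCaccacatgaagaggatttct

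At chrX:69309273-69309673, between LINC00269 and CYCSP43, controls had 4.16, 4.43 and 4.59 log2 CPM and dTAGV-1 libraries 3.61, 4.35 and 4.66. The groups overlapped, with a change of -0.12 ± 0.14 (adjusted p = 1.000). The window chr18:63075089-63075489 lay between the starts of PHLPP1, a phosphatase gene, and BCL2, which encodes an inhibitor of apoptosis, 169002 and 63122 bp away. Its controls had 1.31, 2.84 and 3.23 and its dTAGV-1 libraries 2.38, 2.89 and 3.13 log2 CPM, and its change was 0.089 ± 0.15 (adjusted p = 1.000). At chr5:28012532-28012932, 527517 bp from PURPL, a long noncoding RNA gene regulated by p53, controls had 2.02, 2.56 and 2.70 and dTAGV-1 libraries 2.08, 2.71 and 3.01 log2 CPM. The change there was 0.20 ± 0.15 (adjusted p = 1.000), so that none of the 3 differed beyond the spread between libraries.

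The CTCF core was more frequent in the more open far intergenic windows. This core, read as CCA, any 2 bases, AG, any 2 bases and GGC, lay in 600 windows (4.66%), against 5.69% of all windows and 7.28% of nearer intergenic ones. It was in 11.1% of the most accessible decile of far intergenic windows and 3.02% of the least accessible decile. Its share fell with distance, from 5.07% at 50 to 100 kb to 3.22% at 200 to 500 kb. The 557 tested had a median log2 fold change of 0.058, 0 calls by edgeR, and 5 lower and 14 higher at an unadjusted p below 0.05. Over all tested windows 0.213% were called lower, and 1.55% were lower and 1.30% higher at an unadjusted p, so 0 calls is near the background. The 3 most accessible are shown with the core in capitals and 20 bases on either side.
chr6:90479487-90479538, minus strand: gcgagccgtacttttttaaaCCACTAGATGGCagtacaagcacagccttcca
chr13:62512329-62512380, plus strand: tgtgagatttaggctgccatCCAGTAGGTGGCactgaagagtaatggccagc
chr13:76473712-76473763, minus strand: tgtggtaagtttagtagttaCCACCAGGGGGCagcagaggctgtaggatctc

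The first, at chr6:90479265-90479665, lay 57753 bp from the start of MAP3K7, which encodes the kinase TAK1. Its controls had 4.10, 4.51 and 4.89 log2 CPM and its dTAGV-1 libraries 3.73, 4.56 and 4.73, with a change of -0.047 ± 0.15. The second, at chr13:62512182-62512582, had 3.89, 4.03 and 4.32 and then 3.97, 4.20 and 4.42, with a change of 0.12 ± 0.13, and the third, at chr13:76473514-76473914, had 3.74, 4.16 and 4.32 and then 3.62, 4.19 and 4.56, with a change of 0.03 ± 0.14. The groups overlapped at all 3, and each adjusted p was 1.000.

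Sites of enhancer factors were as frequent as over the table or more so. The AP-1 site TGACTCA lay in 5.89% of far intergenic windows (5.63% of all), the GATA site AGATAAG in 5.30% (4.19%), the TEAD site ACATTCCA in 1.20% (0.957%) and the POU site ATGCAAAT in 1.07% (0.800%), each on either strand within 100 bp of the centre. In nearer intergenic and deep intronic windows the AP-1 site lay in 6.77% and 6.09%, and the GATA site in 4.67% and 5.36%. The TEAD site lay there in 1.11% and 0.939%, and the POU site in 0.843% and 0.978%. AP-1 sites were thus less frequent in far intergenic windows than in either, and GATA sites were near the deep intronic share. AP-1, TEAD and GATA sites were more frequent in the most accessible decile, at 7.27%, 2.08% and 6.42%, than in the least accessible, at 5.57%, 0.850% and 4.34%. The forkhead site TGTTTAC was not, at 6.14% and 6.52%, nor was the SOX site AACAATGG, at 0.472% and 0.567%, and these last differences are small. Differences between deciles were not tested. Of sites more frequent at promoters, 2 were scarce. The ETS site CCGGAAGT lay in 0.116% (2.88% of promoters) and the SP and KLF site GGGGCGGGG in 0.404% (14% of promoters). Deep intronic windows had them in 0.119% and 0.375%. The NFY site CCAATCA was not scarce, at 3.54%, against 3.25% of all windows and 4.70% of promoters. Windows with AP-1, TEAD, GATA or forkhead sites had median log2 fold changes of -0.035 to -0.0049 and 0 calls by edgeR, with 3 to 7 lower and 1 to 12 higher per site at an unadjusted p below 0.05, of 135 to 673 tested windows per site, to be read against the shares of all tested windows, 0.213% called lower, 1.55% lower and 1.30% higher at an unadjusted p. A match is a description of letters, not of a bound site.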

How the data were processed

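ATAC-seq counts of 16 libraries of 1 HEK293T clone were used, 8 control and 8 dTAGV-1, replicates 9 to 16 by their titles. The deposited count table gives whole-number counts per window of 401 bp, with no normalization (per the file headers), and 0 of its columns of libraries were left unused. It also gives the authors' -log10 q of each window, which starts at 2.0, and a separate deposited list of 259926 summits gives a -log10 score. Cutadapt 1.8.1, Bowtie2 2.4.4, SAMtools 1.9 and hg38 are listed by the submitters' processing notes, with no role or order. The peak caller, the counting tool, the treatment of reads that match several places and any Tn5 shift are not given in the sources used here, and such reads could lower counts in repeated sequence.

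Window centres were placed on GENCODE release 44, and sequence was read from hg38. Positions are counted from 1. The quasi-likelihood test of edgeR 4.0.16 in R 4.3.3 was run over the whole table, scaled by TMM after filterByExpr with the groups given. It tested 185040 windows, 10583 of them far intergenic. P-values were adjusted by the Benjamini-Hochberg method over all tested windows, with a threshold of 0.05. Log2 CPM used TMM scaling and a prior count of 2, and standard errors came from the test statistic. Of the far intergenic windows 2296 had too few counts to be tested. Overlapping windows share counts. The test was also run on counts simulated from the fit to these data, with 200 windows changed. It recovered 144 of them, 0 with the wrong sign, and made 5 false calls. Libraries of the same group were compared over 56 pairs. Their chi-square per degree of freedom was 1.67 to 3.91, so none agreed within sampling noise and all were counted.

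Named windows were all those called, the 5 with the highest control level, the 3 most accessible with the ZNF143 core, the 3 with the CTCF core, and the tested window farthest from a start. Further windows named were chosen after their values were seen. They are those with the shared element, neighbours of called windows, and those called only under an alternative. The members, motif lists and tests were chosen with earlier results of these data known, and the shared element was chosen from the called windows. Motifs were matched on either strand, up to 100 bp from a window's centre. Alternatives were other size factors, other filters on low counts, DESeq2 1.42.0, a replicate block, leaving out libraries, other distance limits, other gene types and other search widths. Part of the check of the labelled line is not reported here.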

Additional observations from a re-analysis of the deposited data

Results flagged for a closer look

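Of 44 sets of 8 libraries of 1 group, 8 had a single library far from the other 7, by the gap to its nearest neighbour over the whole range. Chance gives about 1 in 20. In 7 of the 8 it was control replicate 12, the library with the fewest counts, 2275856. Its share of counts in far intergenic windows was 4.62%, against 2.75% to 3.15% in the other controls. It stood apart on the low side at 6 named windows. Its log2 CPM was 5.32 at chr9:79256759-79257159 (others 6.43 to 6.82), 5.36 at chr9:79447795-79448195 (6.28 to 6.70), and 4.84 at chr13:87124033-87124433 (5.50 to 5.87). It was 4.43 at chr3:94179003-94179403 (5.34 to 5.78) and 1.31 at chr18:63075089-63075489, a window with the ZNF143 core (2.56 to 3.23). At chr18:25503631-25504031, near ZNF521 and called lower, it was 2.55 (3.58 to 3.87). The remaining set was chr5:28012532-28012932, where control replicate 14 stood at 2.02 log2 CPM and the other controls at 2.43 to 2.70.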

How the results depend on the processing

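The count of 9 lower far intergenic windows was 9 with relative log expression size factors, without the low-count filter and with DESeq2, 10 with loess offsets, and 6 with an average log2 CPM of at least 1, where 6 of the 9 were tested. Leaving out 1 library gave 7 to 9 lower and 0 to 1 higher, the higher one without control replicate 10. Libraries of the same replicate number were alike in part, and the main fit did not use the numbers. Same-numbered deviations from the group means correlated at 0.0276 to 0.336, over 0.1 in 5 of 8 pairs. Of the 8 controls, 5 correlated best with their own number. The replicate block gave 10 lower and 1 higher. Without replicates 11 and 12 of both groups 13 were lower and 1 higher. The higher window was chrX:15973297-15973697 each time (log2 fold change 0.66 and adjusted p 0.158 with all libraries). A window without the element, chr13:65444466-65444866, was not called in the main fit (log2 fold change -0.99, adjusted p 0.0984, edgeR). It was called lower with loess offsets, with the block and without replicates 11 and 12. The same held without control replicate 10 and without dTAGV-1 replicate 12. Over all windows, 395 lower calls became 684 with loess offsets, 742 with the block, 767 without replicates 11 and 12, and 627 without control replicate 12. Starts beyond 25000 bp gave 23759 windows with 18 lower, starts beyond 100000 bp gave 5382 with 4, and protein-coding and lncRNA genes alone gave 20867 with 17. Within 50 and 200 bp of the centre the CTCF core lay in 4.14% and 5.16% of windows and the ZNF143 core in 0.256% and 1.93%, and 82.4% had a summit within 100 bp of the window. With the element within 50 bp, chosen after seeing the data, 5 of 12 tested windows were lower, and within 200 bp 8 of 24. Of 480 other values of named windows, 467 stayed on their side of the threshold and 13 did not (chr12:114982733-114983133 and chr15:95834372-95834772), and 0 changed sign past the threshold. Low counts limit the far intergenic windows: the median standard error of a log2 fold change was 0.27, against 0.16 at promoters.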

Other observations

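Some of the far intergenic windows with too few counts to test shared one sequence. The 14 bases found in the most far intergenic windows, GCTTTGTTTACCTA on either strand within 100 bp of the centre, lay in 501 of the 12879 windows (3.89%), against 1.43% of all windows, 1.99% of nearer intergenic, 3.14% of deep intronic and 0.372% of promoter windows. These letters occur in the 5′ end of human L1 retrotransposons, elements that copy themselves through RNA and make up much of the sequence between genes. No repeat annotation was used here. Of the 501, 420 were not tested, which is 18.3% of all untested far intergenic windows, against 16.9% of untested deep intronic windows and 9.35% of all untested windows, and 81 were tested.

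The authors' peak calling and the counts differed in these windows. Their median -log10 q was 50.3, against 14 for the other far intergenic windows, and 87.0% held a summit of the separate list. Yet their median was 42.0 counts over the 16 libraries (interquartile range 15 to 102), against 219 for the others. Among windows not tested, those with the 14 bases had a median -log10 q of 44.2 and 32 counts, and those without had 6.23 and 134. How reads that match many copies were treated is not given in the sources used here, and its part was not tested.

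In the libraries these 501 windows took a summed 306, 330 and 489 CPM (lowest, median and highest of 8 controls) and 297, 328 and 424 with dTAGV-1, with replicate 12 highest in both groups. The ranges overlapped, and the means were 347 ± 60.4 and 345 ± 40.4 (SD, n = 8). None of the 81 tested windows was called lower by edgeR, and 0 were lower and 0 higher at an unadjusted p below 0.05. Over all tested windows 0.213% were called lower, and 1.55% were lower and 1.30% higher at an unadjusted p, so the zeros are near the background.

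The 14 bases hold the forkhead site TGTTTAC, which lay in 8.84% of all far intergenic windows (4.88% over the table) and in 5.15% of those without the 14 bases (3.5% over the table). They also bear on the ZNF143 core at the wider search: of the 501 windows, 95 held the core within 200 bp of the centre, and 1.24% of the other far intergenic windows did. Both shares therefore include copies of 1 repeated sequence.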
